A study of Mus musculus with 10 samples.

Results

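The iron handling genes described here are *Slc40a1*, *Hmox1*, *Fth1*, *Ftl1*, *Tfrc*, *Trf*, *Slc11a1*, *Slc11a2*, *Cp* and *Ncoa4*. They were taken by gene symbol from the table of normalized counts, where all 10 were found among the 25233 entries with a symbol. The libraries came from cells of male C57BL/6J mice that the authors sorted by their own fluorescence as hepatic stellate cells (HSCs). HSCs are the vitamin A storing mesenchymal cells of the liver. The group names below are those of the authors, and the cell type markers of the libraries are given further on. Hypertrophied HSCs (hypHSCs, n = 5 libraries) were sorted on green fluorescence from the livers of mice given CDAHFD, a high-fat diet with defined amino acids and no choline that leads to steatohepatitis and fibrosis. hypHSC 1 and 2 came after 13 weeks of diet at 19 weeks of age, and hypHSC 3, 4 and 5 after 12 weeks at 18 weeks of age. Quiescent HSCs (qHSCs, n = 5 libraries) were sorted on blue fluorescence from mice on standard diet, at 36 weeks of age for qHSC 1, 2 and 5 and at 34 weeks for qHSC 3 and 4. No allele or transgene is named for either group. The diet, the age, the digestion, the antibiotics (added to buffers for CDAHFD livers only) and the gate of the sort all changed from 1 group to the other. They cannot be told apart. The hypHSC preparations were chosen for RNA quality, and the paper states that the qHSC preparations were selected too. By the paper, the hypHSC preparations were picked from more samples than mice, so some may share a mouse. The mice behind the libraries are not named, so n counts preparations, and p-values measure only the spread between them.

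Iron enters cells bound to transferrin through the transferrin receptor, or as free ferrous iron through metal transporters, and it also reaches macrophages as haem in engulfed red cells. Haem oxygenase releases iron from haem, the ferritin shell of heavy and light chains stores it, and ferroportin, the only known cellular iron exporter, returns it to the plasma. Iron regulatory proteins bind a short RNA hairpin, the iron-responsive element (IRE), when iron is scarce. In the 5' UTR this binding blocks translation, as in ferritin and ferroportin, and in the 3' UTR of the transferrin receptor it protects the mRNA. Liver macrophages (Kupffer cells) recycle iron from red cells and hepatocytes store it.

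The IRE hairpins of 4 members are printed below because they are the sequences through which the best known iron sensing acts on these genes. A script searched the UTRs of GENCODE transcripts on GRCm39, on the transcript strand, for windows of 29 bases with a bulged C, an upper stem of 5 pairs, the loop CAGTGN and at least 4 of 6 pairs in the lower stem. The loop is in capitals. The first 3 lie in the 5' UTR, of *Fth1* at chr19:9960096-9960124 (plus strand), of *Ftl1* at chr7:45109203-45109231 (minus strand) and of *Slc40a1* at chr1:45964625-45964653 (minus strand). The last 4 lie in the 3' UTR of *Tfrc*, at chr16:32450037-32450065, chr16:32450416-32450444, chr16:32450481-32450509 and chr16:32450528-32450556 (plus strand).
Fth1: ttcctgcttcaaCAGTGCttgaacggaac
Ftl1: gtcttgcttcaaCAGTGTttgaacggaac
Slc40a1: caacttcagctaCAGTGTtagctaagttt
Tfrc 1: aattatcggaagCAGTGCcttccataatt
Tfrc 2: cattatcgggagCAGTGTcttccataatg
Tfrc 3: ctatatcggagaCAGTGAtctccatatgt
Tfrc 4: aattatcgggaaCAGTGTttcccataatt
This pattern was found in the 5' UTR of 12 of 20490 genes (0.0586%) and in the 3' UTR of 22 of 20882 (0.105%). No other member held it. The search takes only this shape, so a gene without a match may still have an IRE of another shape. A match describes letters, and RNA counts do not measure translation.

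Named genes received 30534719 to 43283589 reads in a hypHSC library and 35640104 to 47317028 in a qHSC library, and mitochondrial entries took 2.21% to 12.8% and 1.25% to 1.61% of the reads. Every member had at least 19 reads in each library. All 10 quiescent stellate genes were called lower in hypHSCs (32029 to 61096 summed normalized counts per library, against 1359673 to 2251374 in qHSCs). All 12 core macrophage genes were called higher in hypHSCs (1506306 to 1754245 against 6613 to 109152), as were all 8 genes of lipid-associated macrophages (962274 to 1133036 against 5089.9 to 6699.6), and none of the genes of these 3 lists was at 0 throughout a group. Of 8 resident Kupffer cell genes, 4 were called higher and 1 lower, and their sum overlapped between the groups (22289 to 47228 against 5310.3 to 59183). All 4 tested neutrophil genes, of 6 in the list, were called higher (summed 1861 to 8039.8 against 5.25 to 389), with *Retnlg* at 0 in every qHSC library. Of 7 tested sinusoidal endothelial genes 3 were called higher (*Stab2*, *Oit3* and *Fcgr2b*) and 2 lower (*Clec4g* and *Egfl7*). The sums of this list did not overlap (5581 to 7265 against 1586 to 2995). Most of each hypHSC sum was *Fcgr2b* alone (4811 to 6085 normalized counts, against 29.97 to 335 in qHSCs), so the sums do not describe the list as a whole. qHSC 1 and qHSC 4 had the highest sums of qHSCs for the core macrophage list (47806 and 109152), the Kupffer cell list (27078 and 59183) and the neutrophil list (125 and 389). None of the 10 hepatocyte genes and none of the 5 tested erythroid genes was called. In bulk libraries, fewer cells of a type and less RNA per cell cannot be told apart.

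Of the 10 members, 5 were higher in hypHSCs (*Slc11a1*, *Hmox1*, *Ftl1*, *Fth1* and *Tfrc*), 2 were lower (*Cp* and *Slc40a1*) and 3 were not called (*Trf*, *Slc11a2* and *Ncoa4*). A gene was called, that is, counted as differentially expressed, when limma on log2(normalized count + 1) gave it a log2 fold change of 1 or more in size with an adjusted p no larger than 0.05. Fold changes are hypHSCs over qHSCs on this log2 scale, with the SE of limma and Benjamini-Hochberg adjustment over the 14630 genes tested. All 10 members passed the filter of at least 10 normalized counts in 5 libraries. For comparison, 39.5% of all genes tested were called in either direction, 17.8% higher and 21.7% lower. The median log2 fold change was 1.02 over the members and -0.20 over all genes tested. In the same 7 members the groups did not overlap, as in 39.5% of all genes. Groups of 5 without overlap always give p = 0.00794 in an exact permutation test (two-sided), its lower limit. That p therefore adds nothing to the lack of overlap.

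**Figure D1:**
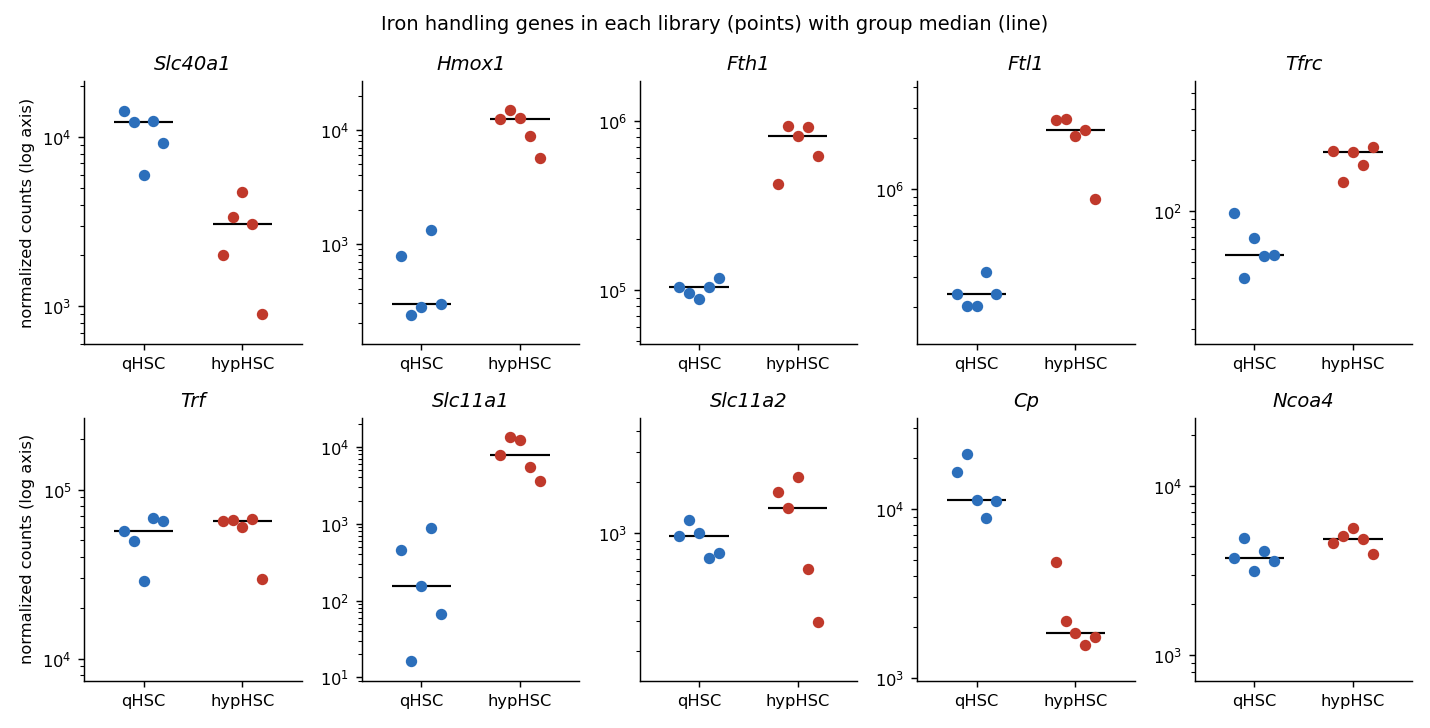
Normalized counts of the 10 iron handling genes on log axes, with 1 point per library and a line at the group median (n = 5 hypHSC and 5 qHSC libraries). The groups are separate for 7 genes, and overlap for *Trf*, *Slc11a2* and *Ncoa4*.

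Both chains of ferritin were among the most abundant transcripts and were higher in hypHSCs. *Fth1* (chromosome 19, 9957962 to 9962475) encodes the heavy chain, which oxidises ferrous iron for storage. It had 423268, 925856, 817558, 916615 and 622022 normalized counts in hypHSC 1 to 5. In qHSC 1 to 5 it had 104484, 95394, 88494, 103679 and 117707. The lowest hypHSC library lay above the highest qHSC library, and the mean was 7.27 times higher in hypHSCs (log2 fold change 2.81 ± 0.30 SE, limma adjusted p = 2.23e-05).

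*Ftl1* (chromosome 7, 45107369 to 45109310) encodes the light chain, which helps the iron core to form. Its normalized counts were 2534749, 2577305, 2049822, 2233387 and 872637 in hypHSC 1 to 5. They were 237254, 202678, 203625, 323415 and 239051 in qHSC 1 to 5. hypHSC 5 was low among the hypHSCs, though still above each qHSC library, and the mean was 8.51 times higher in hypHSCs (log2 fold change 3.01 ± 0.41 SE, limma adjusted p = 0.00012). The level of *Ftl1* is uncertain because 71.6% of the stretches of 59 bases, the read length, of its transcript have an identical copy elsewhere in the genome. Longer entries that lie over copies, such as *F630206G17Rik* on chromosome 11, were left aside. Short entries lie over copies on chromosomes 4, 13 and 17. Together their counts, which are not part of the *Ftl1* entry, came to 61.5% to 69.7% of its value in every library. The call was kept when these short entries were added to *Ftl1*. In *Fth1* 5.97% of the stretches had a copy. Other annotated genes overlap 36.4% of the exon bases of *Fth1* and 47.9% of those of *Ftl1*, and without strand the reads there cannot be told apart.

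Together *Fth1* and *Ftl1* took 7.19%, 8.59%, 7.97%, 7.04% and 3.13% of the reads on genes with a symbol in hypHSC 1 to 5. In qHSC 1 to 5 they took 1.06%, 0.903%, 0.951%, 1.31% and 1.01%. This share does not depend on how the libraries were scaled, and it was higher in each hypHSC library than in any qHSC library. All 10 members together held 3.22% to 8.85% of the reads in hypHSCs and 1.12% to 1.61% in qHSCs, and most of this was ferritin in each library.

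**Figure D2:**
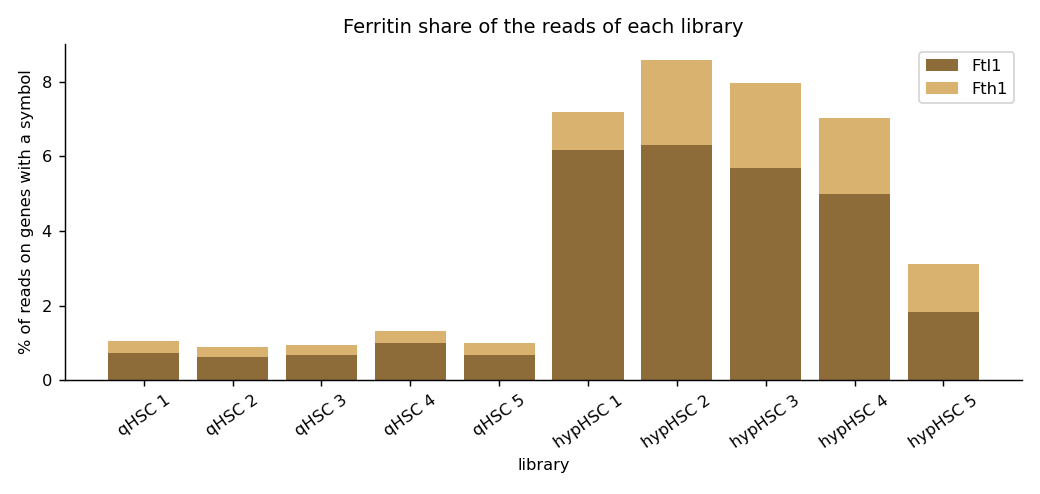
Percent of the reads on genes with a symbol that fell on *Ftl1* and *Fth1*, stacked, 1 bar per library. The qHSC bars reach 0.903% to 1.31%, and the hypHSC bars 3.13% to 8.59%, with hypHSC 5 the lowest of its group.

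*Ncoa4* (chromosome 14, 31881844 to 31901812) encodes the receptor that carries ferritin to autophagy, which frees its iron. It had 4594, 5099, 5706, 4881 and 3973 normalized counts in hypHSC 1 to 5, and 3779.6, 4947, 3149.99, 4124 and 3635 in qHSC 1 to 5. The groups overlapped and the gene was not called (log2 fold change 0.31 ± 0.16 SE, limma adjusted p = 0.137). Of its 59-base stretches 71.6% had an identical copy elsewhere. The separate entries over the copy on chromosome 12 came to 19.7% to 56.5% of its value, least in hypHSC 5.

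Haem oxygenase 1, encoded by *Hmox1* (chromosome 8, 75820245 to 75827220), cleaves haem into iron, carbon monoxide and biliverdin. Its normalized counts were 12689, 15059.8, 12907, 8889 and 5714 in hypHSC 1 to 5. In qHSC 1 to 5 they were 787, 236, 279, 1322 and 296. The mean was 18.9 times higher in hypHSCs, and qHSC 1 and qHSC 4, the qHSC libraries with the highest sums of macrophage markers, were also those with the most *Hmox1*. The log2 fold change was 4.51 ± 0.48 SE (limma adjusted p = 2.16e-05), and 5.27 with qHSC 2, 3 and 5 alone.

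*Slc11a1* (chromosome 1, 74414360 to 74425211) encodes NRAMP1, a divalent metal transporter of the phagosome membrane of macrophages and neutrophils. It had 7879, 13312, 12162, 5492 and 3592 normalized counts in hypHSC 1 to 5. In qHSC 1 to 5 it had 453, 16.2, 157, 867 and 67.4. It had the largest change of the 10 members and the widest spread among qHSC libraries (log2 fold change 5.67 ± 0.90 SE, limma adjusted p = 0.000381). The estimate was 4.89 without qHSC 2, 6.31 without qHSC 4 and 7.06 with qHSC 2, 3 and 5 alone, and 4.79 with DESeq2 and 4.78 with edgeR on the recovered reads. Among the 5 qHSC libraries, *Slc11a1* and the sum of core macrophage markers had the same order, from qHSC 2 over qHSC 5, 3 and 1 to qHSC 4. Among the hypHSC libraries neither *Slc11a1* nor *Hmox1* had the order of this sum. hypHSC 2 was the highest for the sum and for both genes. hypHSC 3 had the lowest sum (1506306) but more *Slc11a1* (12162) than hypHSC 1, 4 and 5. The part of macrophage and neutrophil markers in the differences of *Hmox1* and *Slc11a1* was not tested.

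*Slc11a2* (chromosome 15, 100285783 to 100320936), the related transporter DMT1, carries ferrous iron into the cytosol from endosomes and across the cell surface. Its normalized counts were 1738, 1413, 2153, 616 and 298 in hypHSC 1 to 5, and 960.3, 1197, 995, 716 and 761 in qHSC 1 to 5. The hypHSC libraries lay on both sides of the qHSC libraries, with hypHSC 1, 2 and 3 above and hypHSC 4 and 5 below all of them. The gene was not called, and the sign of its log2 fold change of 0.13 ± 0.48 SE (limma adjusted p = 0.843) was not stable, with -0.15 without hypHSC 3 and -0.07 without hypHSC 1.

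**Figure D3:**
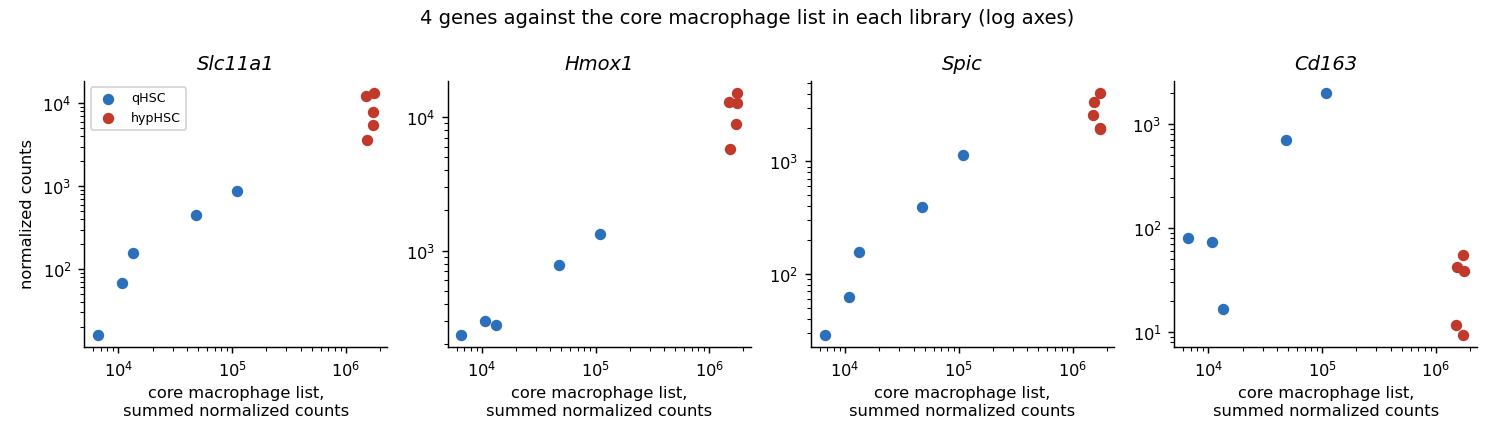
Normalized counts of *Slc11a1*, *Hmox1*, *Spic* and *Cd163* against the summed normalized counts of 12 core macrophage genes, both on log axes, with 1 point per library. In qHSCs *Slc11a1* and *Spic* have the same order as the marker sum, the hypHSC points of *Slc11a1*, *Hmox1* and *Spic* lie to the upper right, and those of *Cd163*, at 9.43 to 54.5, lie low despite the high marker sum. Within hypHSCs none of these genes has the order of the marker sum.

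The transferrin receptor gene *Tfrc* (chromosome 16, 32427714 to 32451612) was low in both groups and higher in hypHSCs. Its normalized counts were 228, 149, 224, 188 and 239 in hypHSC 1 to 5, and 96.8, 40.05, 69.3, 53.9 and 54.7 in qHSC 1 to 5. The mean was 3.26 times higher in hypHSCs (log2 fold change 1.73 ± 0.32 SE, limma adjusted p = 0.00113). When the libraries were scaled on *Hprt*, *Pgk1* and *Actb*, which moved the median of all genes by -0.93, the log2 fold change of *Tfrc* was 0.80 and the call was lost (adjusted p = 0.101).

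*Trf* (chromosome 9, 103081200 to 103107517) encodes transferrin, the iron carrier of plasma, made mainly by hepatocytes. Its normalized counts were 64741, 65646, 60155, 66644 and 29391 in hypHSC 1 to 5, and 56789, 49519.8, 28966, 67806 and 65059 in qHSC 1 to 5. Each group had 1 low library, hypHSC 5 and qHSC 3, and the other 4 libraries of each group lay between 49519.8 and 67806. The difference was not called (log2 fold change 0.10 ± 0.31 SE, limma adjusted p = 0.815), and its sign turned to -0.11 without qHSC 3. The summed hepatocyte markers ranged from 13093 to 127620 in hypHSCs and from 25408 to 91922 in qHSCs, and within hypHSCs the library with the least *Trf*, hypHSC 5, had the most of them.

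Both genes of iron export were lower in hypHSCs. *Slc40a1* (chromosome 1, 45947230 to 45965679) encodes ferroportin. It had 2009, 3374, 4746, 3074 and 898 normalized counts in hypHSC 1 to 5. In qHSC 1 to 5 it had 14291, 12318, 5942, 12452 and 9267. The highest hypHSC library, hypHSC 3, stayed below the lowest qHSC library, qHSC 3, and the mean was 3.85 times higher in qHSCs (log2 fold change -2.08 ± 0.41 SE, limma adjusted p = 0.00162).

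*Cp* (chromosome 3, 20011218 to 20063914) encodes ceruloplasmin, the copper ferroxidase that loads exported iron onto transferrin. Its normalized counts were 4890.1, 2180.2, 1856, 1573 and 1764 in hypHSC 1 to 5. In qHSC 1 to 5 they were 16491, 21248, 11389, 8809 and 11117. hypHSC 1 stood above the other hypHSC libraries and below each qHSC library, and the mean was 5.63 times higher in qHSCs (log2 fold change -2.56 ± 0.33 SE, limma adjusted p = 9.14e-05).

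**Figure D4:**
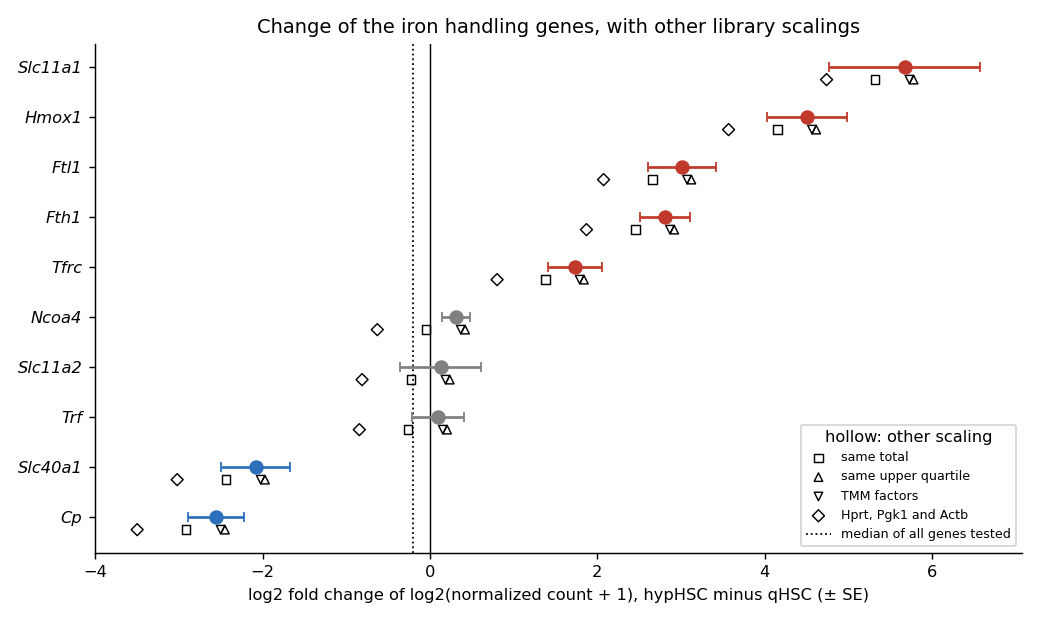
Log2 fold changes of the 10 genes (filled points, bars are the SE of limma, red called higher, blue called lower, grey not called), with the values under 4 other library scalings as hollow symbols and the median of all genes tested as a dotted line. The 7 called genes keep their side of 0 under each scaling, from -2.56 for *Cp* to 5.67 for *Slc11a1* in the filled points, while *Trf*, *Slc11a2* and *Ncoa4* turn negative with the same total or with *Hprt*, *Pgk1* and *Actb*.

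hypHSC 5 was the lowest hypHSC library for 7 of the 10 members (*Slc40a1*, *Hmox1*, *Ftl1*, *Trf*, *Slc11a1*, *Slc11a2* and *Ncoa4*) and the highest for *Tfrc*. It had 14028 detected genes, the fewest of the 10 libraries, and 31615474 reads. Without it the same number of members, 7, was called. Within hypHSCs, the ranges of the 13-week and 12-week libraries were apart for *Cp* (2180.2 to 4890.1 against 1573 to 1856 normalized counts) and for *Ftl1* (2534749 to 2577305 against 872637 to 2233387) and overlapped for the other 8. Such a gap was found in 21.9% of all genes tested, so 2 of 10 is near the background, and with 2 libraries against 3 no test was run.

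To compare levels between genes, FPKM was computed from recovered reads and the length of the canonical transcript. *Ftl1* ranked 2 and *Fth1* ranked 3 of 23185 genes in hypHSCs, with means of 51573 ± 19063 and 19199 ± 6246 FPKM (SD, n = 5). In qHSCs they ranked 5 and 15, with 7598 ± 1558 and 3341 ± 221 FPKM. Ferritin stood at the head of the members in both groups, the ranges of the chains overlapped in hypHSCs and not in qHSCs, and the values of *Ftl1* are those of its own entry, without the entries over its copies.

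After ferritin, the order in hypHSCs was *Trf* (541 ± 171 FPKM), *Hmox1* (172 ± 68.7), *Slc11a1* (81.0 ± 45.5), *Ncoa4* (26.2 ± 6.13), *Slc40a1* (20.3 ± 12.1), *Cp* (14.2 ± 8.27), *Slc11a2* (10.4 ± 7.17) and *Tfrc* (1.005 ± 0.209). From *Hmox1* to *Slc11a2*, the ranges of neighbours in this order overlapped, while *Trf* and *Tfrc* lay apart from theirs. In qHSCs *Trf* (632 ± 169 FPKM) was followed by *Cp* (102 ± 36.9), *Slc40a1* (95.5 ± 29.2), *Ncoa4* (26.7 ± 4.39), *Hmox1* (11.4 ± 9.22), *Slc11a2* (9.38 ± 2.14), *Slc11a1* (3.71 ± 4.18) and *Tfrc* (0.395 ± 0.144). There *Cp* and *Slc40a1* overlapped with each other and were apart from *Trf* above and *Ncoa4* below, and each pair of neighbours from *Ncoa4* to *Tfrc* overlapped. The genes of iron export thus stood above *Hmox1* and *Slc11a1* in qHSCs and below both in hypHSCs by their mean FPKM, though the hypHSC ranges of *Slc40a1* and *Slc11a1* overlapped.

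Ratios of FPKM within a library are free of the library scaling, and are given without a test. The ratio of *Slc40a1* to *Tfrc*, export to uptake, was 12.5, 31.99, 29.99, 23.1 and 5.31 in hypHSC 1 to 5 and 209, 435, 121, 326 and 239 in qHSC 1 to 5. The ratio of *Slc11a1* to *Slc11a2* was 5.27, 10.96, 6.57, 10.4 and 14.0 in hypHSC 1 to 5 and 0.548, 0.0157, 0.183, 1.41 and 0.103 in qHSC 1 to 5. Neither ratio overlapped between the groups. By contrast, the ratio of *Fth1* to *Ftl1* was 0.174 to 0.743 in hypHSCs and 0.334 to 0.514 in qHSCs, so the hypHSC libraries spanned the whole range of qHSCs. The ratio of *Tfrc* to *Fth1* also overlapped, at 3.06e-05 to 0.000102 in hypHSCs and 7.97e-05 to 0.000176 in qHSCs.

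A wider list of 83 iron pathway genes in 10 groups by role, without the members, was read in the same fit. Of these 77 were tested, and 19 were called higher and 14 lower in hypHSCs. At 42.9% of the genes tested this share was near the 39.5% of all genes, and the median log2 fold change was -0.18. The groups by role differed in their counts, as follows, and with so few genes each count is a description.

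Of 13 genes of haem uptake, transport and breakdown, 4 were called higher and 1 lower. *Blvra* (log2 fold change 2.20, limma adjusted p = 6.12e-05) and *Blvrb* (2.95) encode the biliverdin reductases, which act after haem oxygenase, and *Blvrb* had 13293 to 15429 normalized counts in hypHSCs and 1434 to 3027 in qHSCs. *Slc48a1* (2.41), the haem transporter of lysosomes, had 2905 to 7175 and 941 to 998, and *Flvcr1* (2.91), known as a haem exporter of the cell surface, 858 to 1581 and 123 to 175. *Abcg2* (-1.37), an exporter of porphyrins, was lower. *Cd163*, the haptoglobin-haemoglobin receptor of macrophages, had 9.43, 38.3, 11.6, 54.5 and 42.4 normalized counts in hypHSC 1 to 5 and 706, 80.9, 16.5, 1992 and 73.4 in qHSC 1 to 5. qHSC 1 and qHSC 4 were high again, and it was not called (log2 fold change -2.71, limma adjusted p = 0.0733). With DESeq2 it was called (-4.14, adjusted p = 0.000124), as it was with edgeR (-4.16, adjusted p = 0.015) and with limma without qHSC 3 (-3.54, adjusted p = 0.0185). Scaling to the same total (-3.06, adjusted p = 0.0437) or on *Hprt*, *Pgk1* and *Actb* (-3.61, adjusted p = 0.015) and the replicate block (-2.71, adjusted p = 0.0478) also gave a call. Without qHSC 4 the value was -1.83 (adjusted p = 0.161), and with qHSC 2, 3 and 5 alone it was -0.85 (adjusted p = 0.453).

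In haem synthesis, 1 of 9 genes was called higher and 2 lower. *Alas1*, the first and rate-limiting enzyme outside red cells, had 5083 to 22132 normalized counts in hypHSCs and 1457 to 1981 in qHSCs (log2 fold change 3.01, limma adjusted p = 4.69e-05). *Alad* (-1.60) and *Fech* (-1.88), which act at the second and the last step, were lower, so the genes of this pathway did not change in 1 direction.

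Of 8 transcription regulators, 4 were called higher and none lower. *Spic*, a factor of iron-recycling macrophages that haem induces, had 1997, 1937, 2592, 4044 and 3347 normalized counts in hypHSC 1 to 5 and 391, 28.97, 157, 1137 and 62.2 in qHSC 1 to 5. Its qHSC libraries had the order of the core macrophage sum (log2 fold change 3.99, limma adjusted p = 0.00199, 3.37 without qHSC 2, 4.68 without qHSC 4, 5.32 with qHSC 2, 3 and 5 alone, 3.02 with DESeq2 and 3.01 with edgeR). Its hypHSC libraries did not, with the least *Spic* in hypHSC 2, which had the highest sum (1754245). *Bach1* (2.13), the haem-sensing repressor of *Hmox1* and ferritin genes, *Tfeb* (3.01), a regulator of lysosomal genes, and *Maff* (1.12), a partner of NRF2 and BACH1, were also higher, though *Maff* was under the fold threshold without hypHSC 5 (0.89) and with the same total (0.77). The groups overlapped for *Maff*. *Nfe2l2*, which encodes the activator NRF2, had a log2 fold change of 0.43 (adjusted p = 0.0337), under the fold threshold.

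Of 8 tested genes of receptors and sorting, 4 were called higher and 2 lower. *Steap4*, a ferric and cupric reductase, had 3736 to 6225 normalized counts in hypHSCs and 58260.2 to 94769 in qHSCs (log2 fold change -3.99, limma adjusted p = 1.47e-07). *Tfr2*, the second transferrin receptor and an iron sensor, was lower too (-2.67), at 5.39 to 41.96 normalized counts in hypHSCs and 69.3 to 207 in qHSCs. With qHSC 2, 3 and 5 alone *Tfr2* was not called (-2.32, limma adjusted p = 0.0572). *Steap3*, the ferric reductase of endosomes, was higher (4.46, with 3.73 without qHSC 2 and 5.19 without hypHSC 5), as was *Mcoln1* (1.40), a channel that releases iron from lysosomes. The groups overlapped for *Steap3*, with 21.17 normalized counts in hypHSC 5 and 21.72 in qHSC 1. *Snx3* (1.22), which recycles the transferrin receptor, was under the fold threshold without hypHSC 5 (0.91) and with the same total (0.87). The groups overlapped for *Snx3* too, with 3184.15 normalized counts in hypHSC 3 and 3184.46 in qHSC 5. On *Hprt*, *Pgk1* and *Actb*, *Snx3* was at 0.28 and *Mcoln1* at 0.46, and neither was called. *Steap1* was called higher at a mean under 100 normalized counts in both groups.

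Of 5 other importers, 2 were called higher and 1 lower. *Lcn2*, which binds iron-laden siderophores, was higher (4.88, and 3.91 without qHSC 3) along with the neutrophil markers, whose part in it was not tested, and *Slc22a17*, its receptor, was lower (-4.82, with -5.59 without hypHSC 3 -4.15 without hypHSC 4 or 5, -3.73 with a pseudocount of 5, -3.31 with DESeq2 and -3.28 with edgeR). *Slc39a4*, a zinc importer, was higher (3.16).

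Among 4 tested export partners, *Heph*, the membrane ferroxidase related to ceruloplasmin, was lower (-3.14, limma adjusted p = 0.0066, and -2.47 without hypHSC 5). *Hamp*, the hepatocyte hormone hepcidin that degrades ferroportin, had 205 to 2069 normalized counts in hypHSCs and 617 to 1794 in qHSCs and was not called (-0.83, adjusted p = 0.266), except without hypHSC 5 (-1.29, adjusted p = 0.0413) and with scaling on *Hprt*, *Pgk1* and *Actb* (-1.77, adjusted p = 0.0411). hypHSC 5 had both the most *Hamp* and the highest sum of hepatocyte markers of its group.

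Of 9 tested genes of hepcidin control, none was higher and 4 were lower. These were *Bmp2* (-3.62), a ligand that liver endothelium gives to hepatocytes, the receptors *Bmpr1a* (-3.64, and -2.996 without hypHSC 5) and *Acvr1* (-2.06), and the co-receptor *Neo1* (-2.67).

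Of 5 iron sensing genes, 2 were lower. *Epas1*, which encodes HIF-2α, was lower (-5.36, and from -6.06 without hypHSC 2 to -4.34 without hypHSC 4, with -6.02 without hypHSC 3, -4.11 with DESeq2 and -4.08 with edgeR). *Aco1* encodes IRP1, which binds the hairpins shown above when it lacks its iron-sulphur cluster. It had 504 to 3938 normalized counts in hypHSCs and 3731 to 5171 in qHSCs, and its log2 fold change of -1.22 passed narrowly (limma adjusted p = 0.0453). The call was lost when any library except hypHSC 2 or 3 was left out, to -0.73 without hypHSC 5. *Ireb2*, which encodes IRP2, and *Fbxl5*, the iron-sensing ligase that degrades it, had log2 fold changes of -0.18 and -0.21 and were not called.

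In the mitochondrion, 4 of 12 genes were called higher and 1 lower. The iron importers *Slc25a37* (1.23) and *Slc25a28* (1.30) and the iron-sulphur cluster chaperone *Hscb* (1.96) were higher, and both importers lost the call with the same total for each library (0.87 and 0.94) or on *Hprt*, *Pgk1* and *Actb* (0.29 and 0.36). *Glrx5* (1.40, limma adjusted p = 0.0481) and *Abcb10* (-1.04, adjusted p = 0.0437) passed narrowly, and were lost when 1 library was left out, except for hypHSC 3 or qHSC 5 with *Glrx5* and hypHSC 5 with *Abcb10*. The groups overlapped for *Slc25a37*, *Glrx5* and *Abcb10*. None of the 4 tested genes of stored iron and its release other than the members was called.

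**Figure D5:**
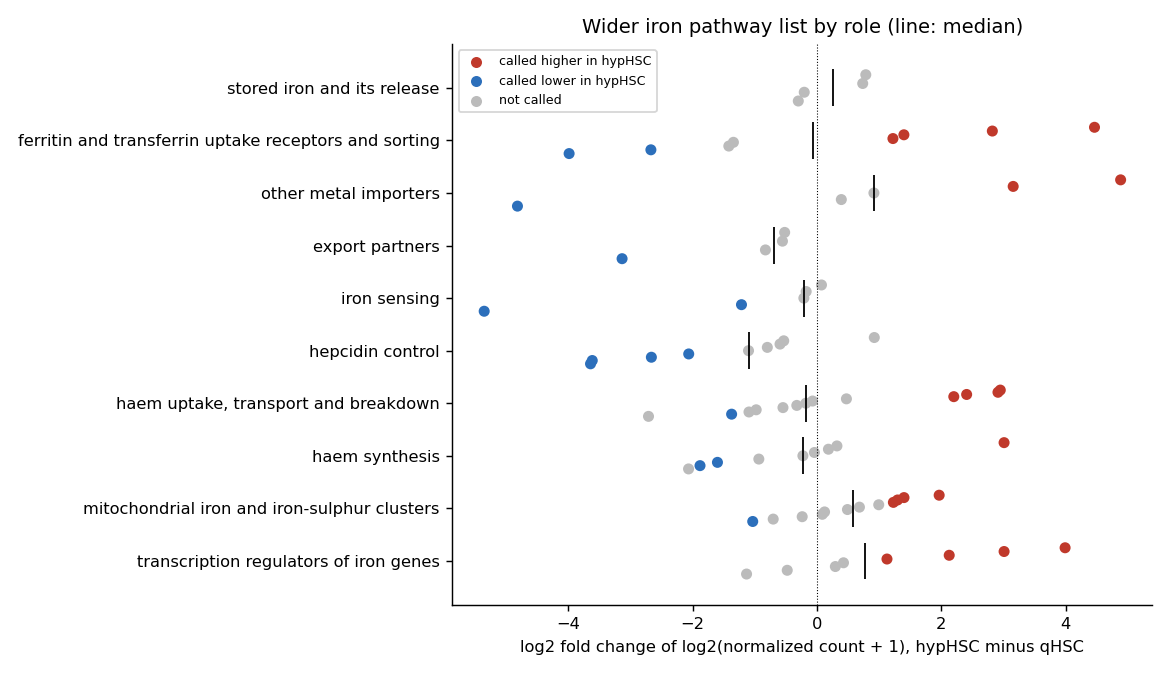
Log2 fold changes of the 77 tested genes of the wider list, 1 point per gene, by role, with a line at the median of each group (red called higher in hypHSCs, blue called lower, grey not called). The 4 called genes of hepcidin control are all lower, the 4 called regulators are all higher, and haem breakdown has 4 red points beside 1 blue point.

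The genes most like each member by Pearson correlation over the 10 libraries were sought among the genes tested, as a description. The libraries share their scaling and their 2 groups, so such a correlation mostly reads the difference between groups. The search over the hypHSC libraries alone took only genes whose mean reached 100 normalized counts in hypHSCs. *Hmox1* was closest to *Acp5* (r = 0.999), *Lpxn* (0.998) and *Siglecf* (0.997). *Slc11a1* was closest to *Hk3* (0.998), *Tnfaip8l2* (0.998) and *P2ry6* (0.996). *Fth1* was closest to *Gpr137b-ps* (0.996), *Csf2ra* (0.992) and *Ptgs2os2* (0.991), and *Ftl1* to 2 entries that lie over its own copies and then to *Taldo1* (0.996).

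Of the members lower in hypHSCs, *Cp* was closest to *Sdc2* (r = 0.9905), *Gdf10* (0.9898) and *2810410L24Rik* (0.989), and *Slc40a1* to *Ppip5k2* (0.978), *Hbs1l* (0.977) and *Copb1* (0.975). *Sdc2* was also among the 3 closest to *Cp* over the 5 hypHSC libraries alone (0.992), the only gene of these members found in both. *Tfrc* was closest to *Armc2* (0.978). For the members that were not called, the highest correlation was 0.988 for *Slc11a2* with *Tab1*, 0.947 for *Trf* with *Wfdc3* and 0.917 for *Ncoa4* with *Fnbp1l*. Over the hypHSC libraries alone, the gene closest to *Ncoa4* was *Fech* of the haem pathway (0.996), which with 5 points is a description of those libraries.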

How the data were processed

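Bulk RNA sequencing of 5 hypHSC and 5 qHSC preparations was analysed. As their methods state, the authors reverse-transcribed RNA with oligo-dT, sequenced unstranded pairs of 59 bases, mapped them with STAR (2.7.5a, per the submitters' processing notes) to mm39 and counted them per gene with featureCounts (Subread 1.5.0). The authors divided each gene count by the DESeq2 size factor of its library, and the deposited signal is this normalized count. How reads with several matches were counted is not given in the sources used here. A size factor was fitted for each library so that multiplying by it gave whole reads. This held for 100% of values (tolerance 0.02 plus the rounding of the values). As whole reads were the aim of the fit, this is not a separate check of the factors. Those reads gave depth and FPKM, with lengths for the 91.9% of symbols matched to GENCODE. At this depth 3 reads are 2.25 to 4.54 normalized counts, which covers counting error only.

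log2(normalized count + 1) was compared with limma 3.58.1 (trend) in R 4.3.3, without a replicate block, on named entries that reached 10 normalized counts in 5 libraries. The code was run on simulated data with few changed genes and the same spread in both groups. These data differ in both respects, so that run does not test the method for them. Alternatives changed the pseudocount, filter, scaling, tool (DESeq2 1.42.0, edgeR 4.0.16), block, diet weeks and libraries. The members, the wider list and the marker lists were chosen with earlier results of these data known. Named beside the members were called genes of the wider list whose mean reached 100 normalized counts in a group, and 8 genes whatever their call (*Hamp*, *Heph*, *Cd163*, *Aco1*, *Ireb2*, *Fbxl5*, *Nfe2l2* and *Bach1*). *Steap1* and single libraries were singled out after the values were seen.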

Additional observations from a re-analysis of the deposited data

Results flagged for a closer look

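Of 104 groups of 5 libraries examined for a library far from the others, 4 held one, and chance gives about 1 in 20 such groups. *Trf* had 29391 normalized counts in hypHSC 5, against 60155 to 66644 in the other hypHSC libraries. The share of reads on *Fth1* and *Ftl1* was 3.13% in hypHSC 5, against 7.04% to 8.59% in the others. *Cp* had 4890.1 normalized counts in hypHSC 1, against 1573 to 2180.2, and *Lcn2* had 1474 there, against 249.6 to 502. In data outside the comparison, the entry without a symbol over the *Ftl1* copy on chromosome 13 (74554941 to 74555180) had at least 262872 normalized counts in each hypHSC library and 62625 to 99661 in qHSCs, and whether these reads came from the copy or from *Ftl1* was not tested.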

How the results depend on the processing

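The count of 7 called members held in 25 of 26 alternatives and was 6 with scaling on *Hprt*, *Pgk1* and *Actb*, and each of the 7 kept its direction throughout. Leaving out each library gave 7 called members, 29 to 34 genes of the wider list and 5241 to 5914 of all genes. With entries without a symbol included, 9291 entries were called, since more were tested. Of the named genes, signs turned for uncalled ones only. With the same total they were -0.26 for *Trf*, -0.23 for *Slc11a2* and -0.045 for *Ncoa4*. With *Hprt*, *Pgk1* and *Actb* they were -0.84 for *Trf* (adjusted p = 0.0238), -0.81 for *Slc11a2*, -0.63 for *Ncoa4* (adjusted p = 0.0282) and -0.51 for *Nfe2l2*. With hypHSCs at 12 weeks only they were -0.069 for *Trf*, -0.31 for *Slc11a2* and 0.0069 for *Ireb2*. Without single libraries, *Trf* ranged from -0.11 (qHSC 3) to 0.32 (hypHSC 5) and *Slc11a2* from -0.15 (hypHSC 3), with -0.07 (hypHSC 1), to 0.56 (hypHSC 5). The cause was not tested.

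Scaling moved the median log2 fold change of all genes by -0.35 (same total), 0.11 (upper quartile), 0.06 (TMM) and -0.93 (*Hprt*, *Pgk1* and *Actb*). Calls in the wider list were 19 higher and 14 lower, but 13 and 22 with the same total, 12 and 37 with those 3 genes and 16 and 18 at 12 weeks only. Of the calls over all genes, 45.0% were higher, against 32.4% and 17.4% under the first 2 of these, 52.9% with DESeq2 and 52.2% with edgeR. Under scaling on the 3 genes, *Snx3*, *Mcoln1*, *Slc25a37*, *Slc25a28*, *Glrx5* and *Maff* also lost their calls and *Hamp*, *Ireb2*, *Fbxl5* and *Cd163* were called lower.

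Same-numbered libraries deviated together with correlations of 0.008 to 0.129. These values are low, but they do not settle whether such libraries share more than a number. With the replicate block 7 members, 34 genes of the wider list and 5786 of all genes were called. It ended the calls of *Aco1* and *Abcb10* and called *Cd163*. Sums over copies, and qHSC 2, 3 and 5 alone, were chosen after seeing the data, and left 7 members called, with 26 of the wider list in the latter.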
